A study of Sus scrofa with 10 samples.

Results

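Microglia, the resident macrophages of the brain, were compared between adult and fetal pig medial entorhinal cortex (MEC), the part of the hippocampal region that holds grid cells. Cells were chosen by their counts of unique molecular identifiers (UMIs): C1QA, C1QB, CSF1R and AIF1 together had to reach 5 UMIs and 0.1% of the UMIs of a cell, with hemoglobin HBB under 5%. The rule gave 228 of 737 cells in Adult_1 and 2024 cells in the 5 fetal whole-cell libraries that held at least 20 such cells, so 2252 of the 28229 cells and nuclei of the series were compared. The fetal libraries were E50_1 (125 of 5506 cells, embryonic day 50), E60_1 (1181 of 8171), E60_2 (492 of 3479) and E60_3 (125 of 2696, embryonic day 60), and E70_3 (101 of 3120, embryonic day 70). E70_1 (17 of 493) and E70_2 (18 of 617) fell below 20 cells and took no part in the calls. Genes were chosen by the same adult against fetal values that are described here, so these values are given with no test.

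All 8 libraries were droplet libraries of whole cells dissociated with papain. According to the labels E50_1 pooled 3 brains, E60_3 and E70_1 pooled 2, and the others, Adult_1 among them, came from 1 brain each, although the study's own sample list gives other numbers for E70_1 and E70_3. Fetuses were those of Danish Landrace/Yorkshire sows inseminated from Duroc boars. The single adult brain is described in the study both as that of a sow and as that of a young postnatal pig. Adult sows came from another study and were killed with an overdose of sodium phenobarbital, and postnatal pigs were received dead. Stage, brain, manner of death and library cannot be told apart for Adult_1. Intervals are exact Poisson or exact Clopper-Pearson 95% intervals and cover counting error only.

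Microglia enter the brain from the yolk sac during embryonic life and renew themselves there. They divide and clear dying cells while the cortex is built, and in the mature brain they survey the tissue, tag material for removal with complement and, when activated, present peptides on major histocompatibility complex (MHC) class II molecules. C1QA and C1QB encode chains of the first complement component, CSF1R is the growth factor receptor on which these cells depend, and AIF1 encodes the cytoskeletal protein known as IBA1.

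Microglia made up 30.9% of the cells of Adult_1 (27.6 to 34.4) and between 2.27% (E50_1) and 14.5% (E60_1) of the cells in the 5 fetal libraries. Close to the threshold, 3 adult cells lay just inside and 7 just outside, against 27 and 31 in E60_1. In E60_3 13 of its 125 microglia lay just inside and 14 cells just outside. A rule of 10 UMIs and 0.2% kept 98 cells of E60_3 and 223 of Adult_1. Levels are given below as UMIs of a gene per 1000000 UMIs summed over the microglia of a library (CPM). The label was checked on 12 further microglial markers that the rule did not use. Of these, 10 (PTPRC, C1QC, TYROBP, CX3CR1, P2RY12, TREM2, ITGAM, SPI1, LAPTM5 and CTSS) had a higher level in the chosen cells than in the remaining cells of the same library in all 8 libraries, by at least 8.81-fold apart from ITGAM, for which the smallest ratio was 1.56. CD68 was at 0 UMIs in all of them. No doublets were removed here. Cells with over 1% of their UMIs in markers of another brain cell class made up 0.877% of adult microglia. The share was 6.4% in E50_1, 12.96% in E60_1, 14.6% in E60_2, 0% in E60_3 and 0.990% in E70_3.

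The microglia of Adult_1 held 1441171 UMIs and those of the 5 fetal libraries 1016629 to 6221728. The median adult cell held 6009.5 UMIs, between the fetal medians of 4698 and 11922. Thinned to 2000 UMIs, an adult cell had a median of 1325 genes, above the 1122 to 1287 of the 5 fetal libraries but below the 1331 and 1334 of E70_1 and E70_2. E60_3 and E70_3 stood apart from the other fetal libraries: IL1A, a proinflammatory cytokine gene, lay at 275 and 394 CPM there and at 5.84 to 37.3 in the other fetal libraries, and TNF at 195 and 331 against 9.0 to 30.4. CST3, the cystatin C gene and an abundant microglial transcript, showed the opposite order, with 2842 and 1237 CPM against 5996 to 23425. No library pair shared more than 57 cell barcodes.

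A gene was called higher when its summed adult level was at least 2-fold above the highest of the 5 fetal libraries, and lower when it was at least 2-fold below the lowest, with counting intervals clear of that library. Of 9989 genes tested, 613 were higher (6.14%) and 318 were lower (3.18%), while 29.8% lay above and 18.7% below the fetal range at any fold. Among the calls 65.8% were higher, a share that became 34.9% with TMM scaling (trimmed mean of M values) and 40.0% with median-of-ratios scaling. The median log2 ratio of adult to fetal level over all genes was 0.18 with total UMIs, −0.22 with TMM and −0.16 with median-of-ratios scaling, and the values below are on the scale of total UMIs. Without E60_3 and E70_3 there were 1228 higher and 795 lower genes.

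**Figure D1:**
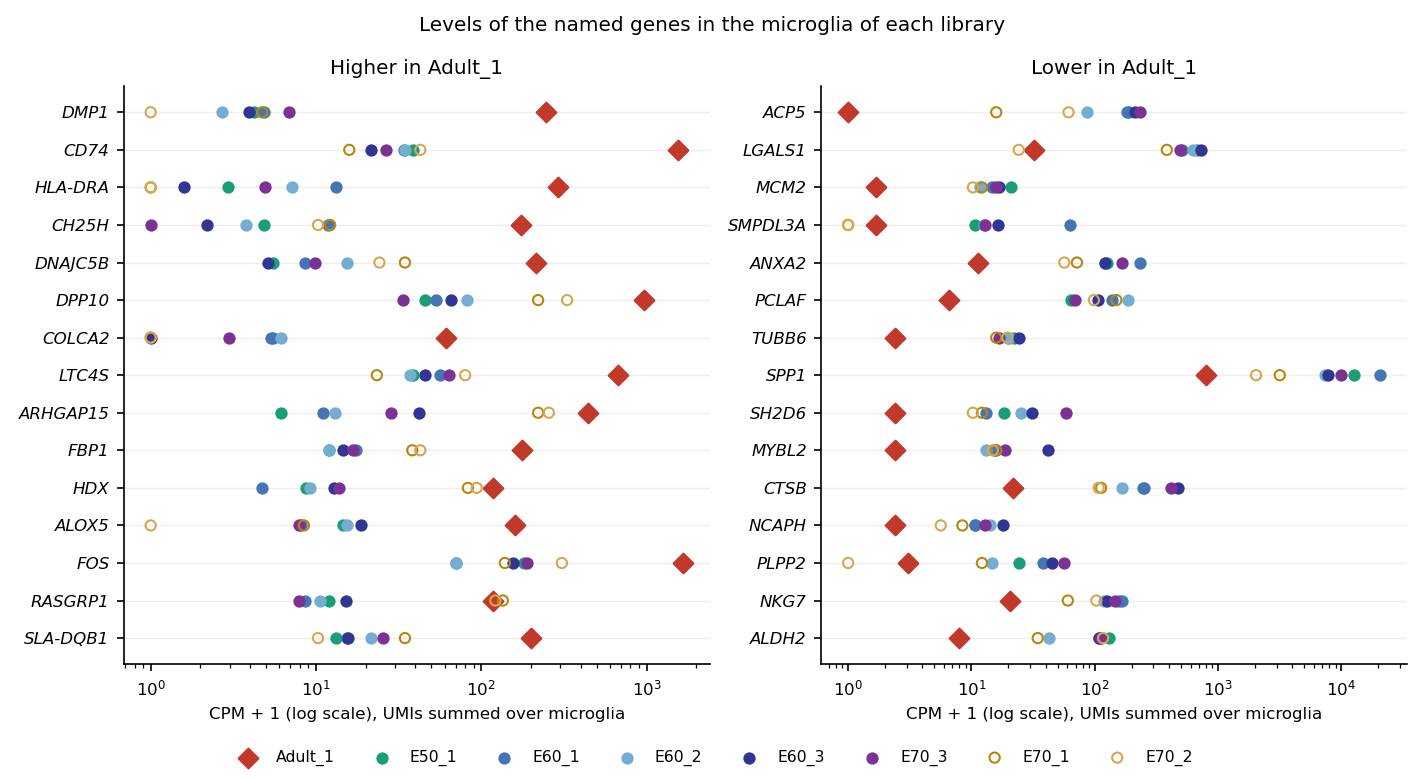
Level of the 15 named higher and 15 named lower genes in microglia, as CPM + 1 on a log axis, with a diamond for Adult_1, filled circles for the 5 fetal libraries of the calls and open circles for E70_1 and E70_2. The adult diamonds of DMP1 (244 CPM) and CD74 (1550.1 CPM) lie far to the right of every fetal point, whereas the open circles of RASGRP1 (134 and 121 CPM) lie to the right of its diamond (117 CPM).

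Genes of antigen presentation on MHC class II formed the list with the highest median ratio of adult to fetal level. CD74, the invariant chain that escorts class II molecules to the endosome (chromosome 2 from 151402210 to 151409924 in Sscrofa11.1), had 1550.1 CPM in adult microglia (1487 to 1616), against 37.5 in E50_1, 32.9 in E60_1, 33.7 in E60_2, 20.6 in E60_3 and 25.6 in E70_3. The fetal values were within a narrow band and the adult value was 41.3-fold above the highest of them, with 14.9 and 41.8 CPM in E70_1 and E70_2.

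HLA-DRA, the class II alpha chain, followed with 289 CPM (262 to 318) against 1.94 in E50_1, 12.2 in E60_1, 6.19 in E60_2, 0.589 in E60_3 and 3.93 in E70_3, and no UMI in E70_1 and E70_2. SLA-DQB1, a class II beta chain (chromosome 7 from 24969034 to 24977238), had 199 CPM against 12.3 to 24.6. The UMIs of both chains lay in a minority of cells. HLA-DRA was found in 61 of the 228 adult microglia and SLA-DQB1 in 81, whereas CD74 was found in 199. The median adult cell had 0 UMIs of HLA-DRA, 0 of SLA-DQB1 and 4 of CD74. Class II chains belong to a family of similar genes, so UMIs may have been divided among them. CIITA, the transactivator of class II genes, was at 61.1 CPM against 4.81 to 24.6, and the peptide-exchange genes SLA-DMA and SLA-DMB were at 186 against 36.5 to 63.6 and at 491 against 96.6 to 209. Of 19 listed class II symbols 9 were in the files and 7 passed the filter, of which 6 were higher. IFI30, a lysosomal thiol reductase, lay inside the fetal range with 108 CPM. The list had a median log2 ratio of 3.33. When E70_1 and E70_2 were added 8 members were tested, the same 6 genes were higher and the median was 2.40.

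Cells thinned to 2000 UMIs were scored for a UMI of CD74, HLA-DRA or SLA-DQB1. These are the class II members among the named higher genes, and the other list members were not counted. The share was 67.1% in adult microglia (60.6 to 73.2), against 3.22% to 11.9% in the 5 fetal libraries. Taken singly, CD74 was found in 63.6% of adult microglia, HLA-DRA in 17.1% and SLA-DQB1 in 18.9%. The highest shares in the 5 fetal libraries were 7.2%, 0.8% and 8.91%. Transcripts of the group were also present in the other adult cells. There 31.0% of cells had such a UMI, CD74 was at 546 CPM, HLA-DRA at 173 and SLA-DQB1 at 126, and the median log2 ratio of the list over the other cells was 3.89.

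MHC class I differed less. Of 9 tested members of the class I and peptide-loading list 3 lay above the fetal range, none was called in either direction, and the median log2 ratio was 0.55. In the other cells the median was 1.31.

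**Figure D2:**
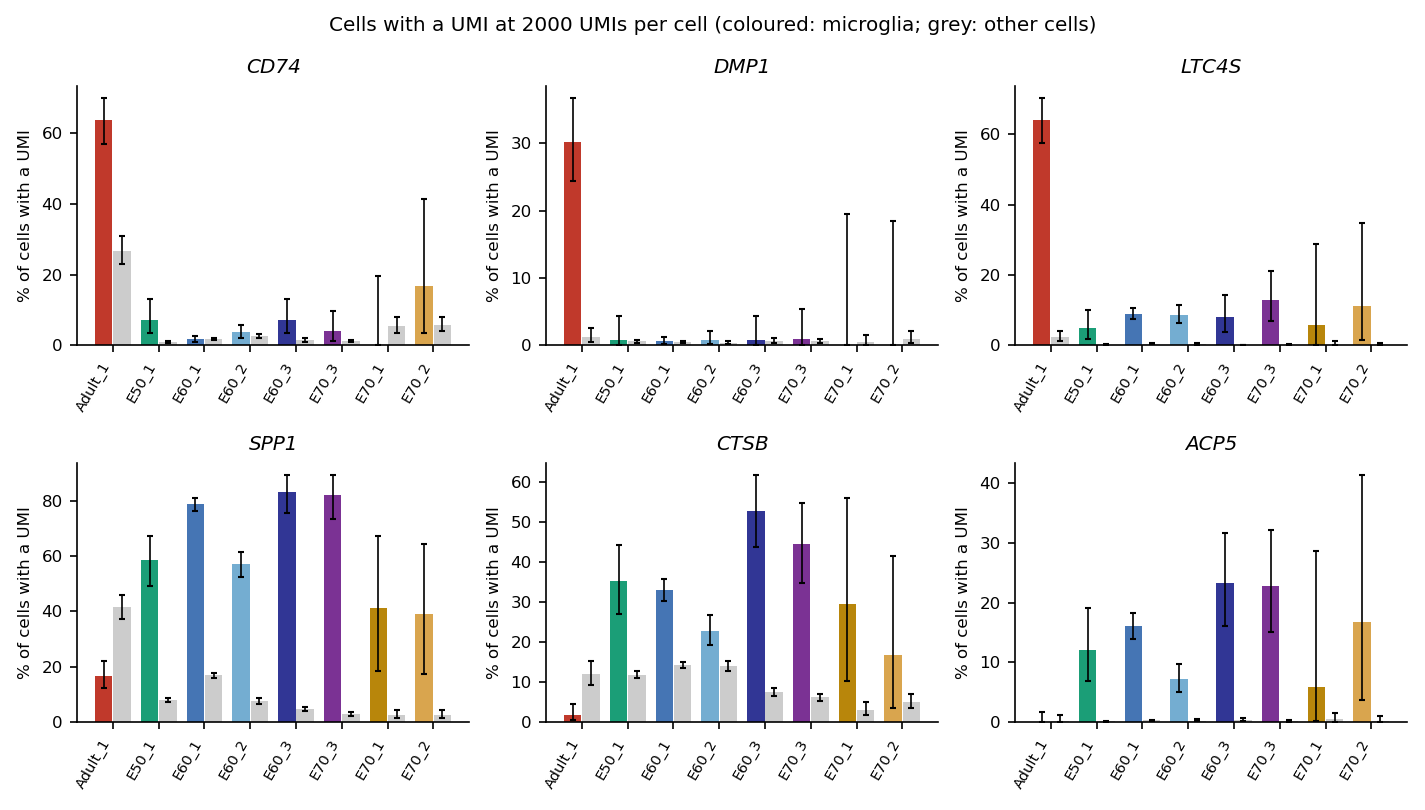
Share of cells with at least 1 UMI of 6 genes after thinning each cell to 2000 UMIs, by library, with coloured bars for microglia, grey bars for the other cells and exact 95% intervals. CD74 was found in 63.6% of adult microglia and 26.7% of other adult cells, LTC4S in 64.0% and 2.36%, and SPP1 in 16.7% and 41.5%.

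DMP1 had the largest fold of the higher genes with a symbol that were at least as high in microglia as in other adult cells. It encodes dentin matrix acidic phosphoprotein, a secreted protein of the SIBLING family known from bone and teeth, and lies on chromosome 8 from 131285238 to 131319398, close to SPP1 of the same family. Its level was 244 CPM in adult microglia (219 to 271), against 3.23 in E50_1, 3.86 in E60_1, 1.72 in E60_2, 2.95 in E60_3 and 5.90 in E70_3. All fetal libraries were low, E70_1 and E70_2 included (3.73 and 0 CPM), and the adult level was 41.4-fold above the highest of the 5. A UMI was found in 30.3% of adult microglia at equal depth (24.4 to 36.7) and in at most 0.990% of fetal microglia. The other adult cells had 5.66 CPM and a UMI in 1.18% of cells. The 10 adult microglia with most DMP1 held 30.7% of its 352 UMIs.

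A pair of leukotriene enzymes was among the named genes. LTC4S, leukotriene C4 synthase (chromosome 2 from 78799446 to 78802281), had 674 CPM (633 to 718) in Adult_1 against 37.5 in E50_1, 55.5 in E60_1, 36.1 in E60_2, 44.8 in E60_3 and 63.0 in E70_3. Adult microglia were 10.7-fold above the highest of these, 64.0% of them had a UMI at equal depth against 4.80% to 12.9%, and the level in the other adult cells was 9.96 CPM. ALOX5, the 5-lipoxygenase that makes the precursor of leukotrienes, had 159.6 CPM (139.6 to 182) against 13.6 in E50_1, 7.07 in E60_1, 14.4 in E60_2, 17.7 in E60_3 and 6.89 in E70_3. Its adult level was 9.03-fold above the highest fetal library, and 7.45 and 0 CPM were found in E70_1 and E70_2.

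CH25H, the cholesterol 25-hydroxylase, reached 173 CPM in Adult_1 against 0 to 10.8 in the 5 fetal libraries. Its UMIs were concentrated, with 70.7% of them in 10 of the 228 adult microglia. FBP1, a gluconeogenic phosphatase, had 176 CPM against 11.0 to 16.6 in the 5 fetal libraries and 37.3 and 41.8 in E70_1 and E70_2.

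DPP10 encodes a membrane protein that modulates potassium channels (chromosome 15 from 21365700 to 22011989). It lay at 963 CPM in adult microglia (913 to 1015), against 44.6 in E50_1, 52.4 in E60_1, 81.1 in E60_2, 64.2 in E60_3 and 32.5 in E70_3, which is 11.9-fold above the highest. A UMI was found in 83.3% of adult microglia at equal depth. It was the single gene among the 15 named higher genes for which the other adult cells were not above the fetal range, with 85.0 CPM against a fetal median of 113. E70_1 and E70_2 were higher than the other fetal libraries both in microglia (219.9 and 329.8) and in other cells (369.8 and 382).

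The same libraries E70_1 and E70_2 were also high for several other named genes. ARHGAP15, a GTPase-activating protein for Rac, had 441 CPM in Adult_1, 5.17 to 41.2 in the 5 fetal libraries and 219.9 and 255 in E70_1 and E70_2, where the other cells had 235 and 267. HDX, a homeobox gene, had 117 CPM in Adult_1, 3.70 to 12.8 in the 5 libraries and 82.0 and 92.9 in E70_1 and E70_2. RASGRP1, a Ras activator of lymphocytes, had 117 CPM in Adult_1 against 6.89 to 14.1, but 134 and 121 in E70_1 and E70_2, so its level was not above all 7 fetal libraries. DNAJC5B, a chaperone gene (214 against 4.12 to 14.4), was at 33.5 and 23.2 there. COLCA2 was at 60.4 CPM against 0 to 5.15, with no UMI in E70_1 and E70_2.

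Of the 15 named higher genes, 14 lay above all 7 fetal libraries and 12 did so by at least 2-fold. Over all 613 higher genes, 63.1% were above E70_1 and 63.1% above E70_2, beside 57.7% and 58.5% of all genes tested, and 40.8% and 39.6% exceeded them by at least 2-fold, beside 22.4% and 24.7%. With all 7 fetal libraries in the range, 189 genes were higher and 82 lower.

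Immediate early genes encode transcription factors and regulators that cells induce rapidly after many stimuli. FOS (chromosome 7 from 98449508 to 98451971) was at 1661 CPM in adult microglia (1595 to 1729), against 180.4 in E50_1, 69.8 in E60_1, 69.1 in E60_2, 155 in E60_3 and 189 in E70_3, with 307 in E70_2. Of 27 tested genes of the immediate early and stress list, 9 were higher, none was lower, 16 were above the fetal range and the median log2 ratio was 1.39. ATF3 was at 867 CPM against 30.2 to 149, HSPB1 at 1305 against 67.1 to 406, and DUSP1 at 670.3 against 82.1 to 259. The other adult cells showed the same list with a median log2 ratio of 1.87 and FOS at 1168 CPM. The part of a shift shared by all cells of the library was not tested.

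Complement genes lay above the fetal range in microglia. C3, the central complement component, had 495 CPM in adult microglia, against 94.4 in E50_1, 117 in E60_1, 81.8 in E60_2, 47.1 in E60_3 and 56.1 in E70_3, and 44.6 CPM in the other adult cells. VSIG4, a macrophage receptor for C3 fragments, had 171 CPM against 22.6 to 73.2. SERPING1, the inhibitor of the first component, had 175 against 5.90 to 29.1, with 64.2 CPM in other adult cells. C1QA and C1QB of the list were used to choose the cells and are left out of its counts. Of the other 7 tested members these 3 were higher, none was lower, all 7 were above the range and the median log2 ratio was 1.75, with 1.92 in the other cells. The receptor genes C5AR1 and ITGAM were above the range by less than 2-fold, at 328 and 224 CPM against highest fetal values of 185 and 197.

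Interferon-stimulated genes encode antiviral proteins and their regulators. Of 19 tested genes, 8 were higher, 1 was lower, 16 lay above the fetal range and 2 below it, with a median log2 ratio of 1.90. With E70_1 and E70_2 added, 4 of 20 were higher and none was lower. OAS2, an antiviral synthetase, was at 135 CPM against 13.5 to 42.04, and IRF1, a transcription factor of the response, at 70.1 against 11.4 to 20.03. GBP1, a guanylate-binding protein, was at 103 CPM in microglia and 259.7 in other adult cells, and ISG15, above the range by less than 2-fold, was at 80.5 and 254. BST2, the virus-tethering protein, was the lower member, with 54.8 CPM against 114 to 329. The median log2 ratio of the list over the other cells was 2.29.

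Receptors and cytokines gave fewer calls. Of 15 tested pattern recognition genes TLR3 (55.5 CPM against 7.11 to 10.8) and LY86 (135 against 13.2 to 28.5) were higher, whereas CD180, the partner receptor of the LY86 product, was lower (4.86 against 14.9 to 20.6). The median log2 ratio of this list was 0.43 and turned to −0.018 with TMM scaling, and that of the 4 tested Fc receptor genes, none of them called, was 0.29 and turned to −0.11. In the other cells the medians of these lists were 1.12 and 1.06. Among 16 cytokine genes 3 were higher, of which CCL4, a chemokine, was at 287 CPM against 0.804 to 63.0, but at 652 in E70_1. The cytokine list had a median log2 ratio of 0.97 in microglia and 1.92 in the other cells. Among 19 cytokine and chemokine receptor genes outside the cell rule 1 was higher and CXCR4 was lower (13.2 against 27.8 to 137), with 9 above and 1 below the range and a median log2 ratio of 0.76. In the other cells this median was 0.69.

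Genes used to describe homeostatic microglia gave 1 call. Of 14 tested members outside the cell rule 6 were above, 1 below and 7 within the fetal range. Among all genes tested 29.8% were above and 18.7% below it, and 6.14% were called higher. VSIR was the single member called higher (113 CPM against 19.4 to 42.04), and none was lower. The median log2 ratio of the list was 0.51 in microglia and 0.58 in the other cells. CST3 was at 32948 CPM in Adult_1, against 22432 in E50_1, 13126 in E60_1, 23425 in E60_2, 2842 in E60_3 and 1237 in E70_3. The adult value was 1.41-fold above the highest fetal value and the fetal libraries differed among themselves by more than that. P2RY12, a purinergic receptor, was within the range (771 against 362 to 801), as was GPR34 (287 against 253 to 475). CX3CR1, the fractalkine receptor, was at 449 CPM against 118 to 291.

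Of 13 tested macrophage transcription factors 2 were higher. The median log2 ratio of this list was 0.88 in microglia and 1.21 in the other cells. CEBPB, a factor of inflammatory and myeloid genes, was at 282 CPM against 21.3 in E50_1, 12.2 in E60_1, 11.0 in E60_2, 40.6 in E60_3 and 30.5 in E70_3. At equal depth 32.9% of adult microglia had a CEBPB UMI, against 1.78% to 6.93% in the 5 fetal libraries. In the other cells it was found in 11.0% in Adult_1 and at most 0.465% in these fetal libraries. BHLHE41 was at 229 CPM against 53.6 to 96.4. SPI1, the factor PU.1, lay within the range (262 against 101 to 400.3).

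**Figure D3:**
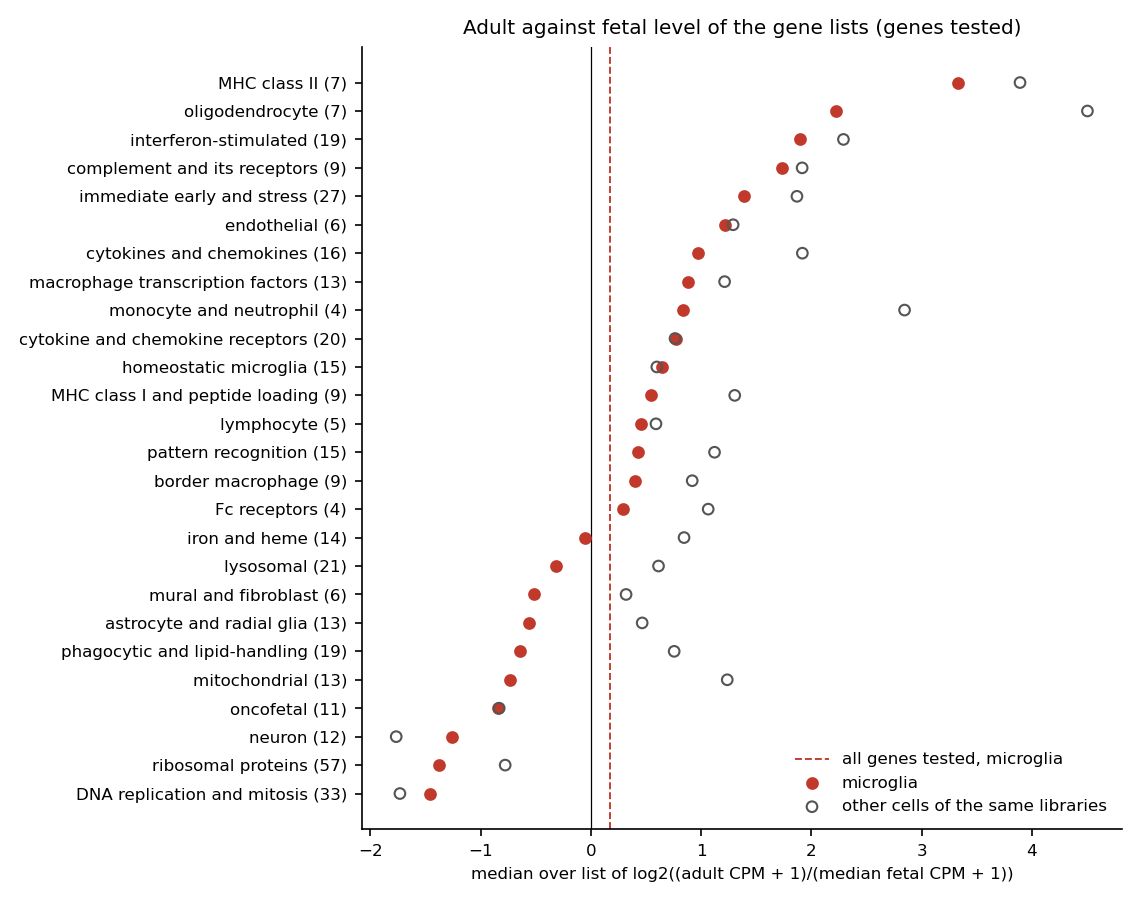
Median log2 ratio of adult to median fetal level for each gene list with at least 4 tested genes, in microglia (filled) and in the other cells of the same libraries (open), genes of the cell rule included, with the median over all genes tested in microglia (0.18) as a dashed line. MHC class II lies highest in microglia at 3.33 and DNA replication and mitosis lowest at −1.46, and the other cells have the same sign for both (3.89 and −1.73).

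SPP1, called lower, encodes osteopontin, a secreted phosphoprotein made by phagocytic microglia (chromosome 8 from 131077786 to 131085334). Fetal microglia held 12652 CPM in E50_1, 20792 in E60_1, 7363 in E60_2, 7749 in E60_3 and 9885 in E70_3, and adult microglia 794 (749 to 842), 9.27-fold below the lowest of them. E70_1 and E70_2 lay between, with 3175 and 2039 CPM. A single adult cell carried 856 of the 1145 SPP1 UMIs (74.8%), and without it the adult level was 204 CPM. At equal depth 16.7% of adult microglia had a UMI, against 56.9% to 83.2% in the 5 fetal libraries and 41.5% in the other adult cells, whose level was 808 CPM. The adult share lay below that of the other cells of the same library.

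ACP5, the tartrate-resistant acid phosphatase of osteoclasts and macrophages (chromosome 2 from 70206159 to 70209855), had no UMI in adult microglia. Fetal values were 188 CPM in E50_1, 183 in E60_1, 85.2 in E60_2, 211 in E60_3 and 234 in E70_3. With a floor of 3 UMIs over the adult microglia (2.08 CPM) the adult level was at least 40.9-fold lower, and E70_1 and E70_2 held 14.9 and 60.4 CPM. The other cells of Adult_1 held 2.06 CPM.

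CTSB, the lysosomal protease cathepsin B (chromosome 14 from 15014139 to 15035081), was at 20.8 CPM in Adult_1 (14.0 to 29.7), against 244 in E50_1, 251 in E60_1, 166 in E60_2, 474 in E60_3 and 413 in E70_3. It was 7.97-fold below the lowest of these and below E70_1 and E70_2 as well (112 and 107). A UMI was found in 1.75% of adult microglia and 22.8% to 52.8% of fetal microglia at equal depth. Of 21 tested lysosomal genes 3 were lower, among them CTSB and LGMN (64.5 against 199.6 to 348), and none was higher. The list was otherwise divided, with 8 members below, 2 above and 11 within the fetal range and a median log2 ratio of −0.32. CTSD, another cathepsin, lay above the range with 1562 CPM against 504 to 1177.

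Of 19 tested phagocytic and lipid-handling genes, 5 were lower and none was higher, and the median log2 ratio was −0.64 in microglia and 0.76 in the other cells. LGALS1, galectin-1, was at 31.2 CPM in Adult_1, against 672 in E50_1, 507 in E60_1, 632 in E60_2, 729 in E60_3 and 494 in E70_3. This was 15.8-fold below the lowest of them, but E70_2 was lower still, at 23.2 CPM, and the other adult cells held 388 CPM. The remaining lower members were GPNMB (6.94 against 15.5 to 108), FABP5, a fatty acid carrier (10.4 against 42.3 to 111), and the growth factor IGF1 (9.02 against 18.6 to 43.6). APOE, the lipid carrier, was at 7173 CPM in Adult_1, 5924 in E50_1, 379 in E60_1, 413 in E60_2, 551 in E60_3 and 544 in E70_3. The adult level of APOE was thus 1.21-fold above E50_1, which stood far from the other fetal libraries. In E50_1 21.5% of other cells also had an APOE UMI at equal depth, and in Adult_1 48.7%.

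**Figure D4:**
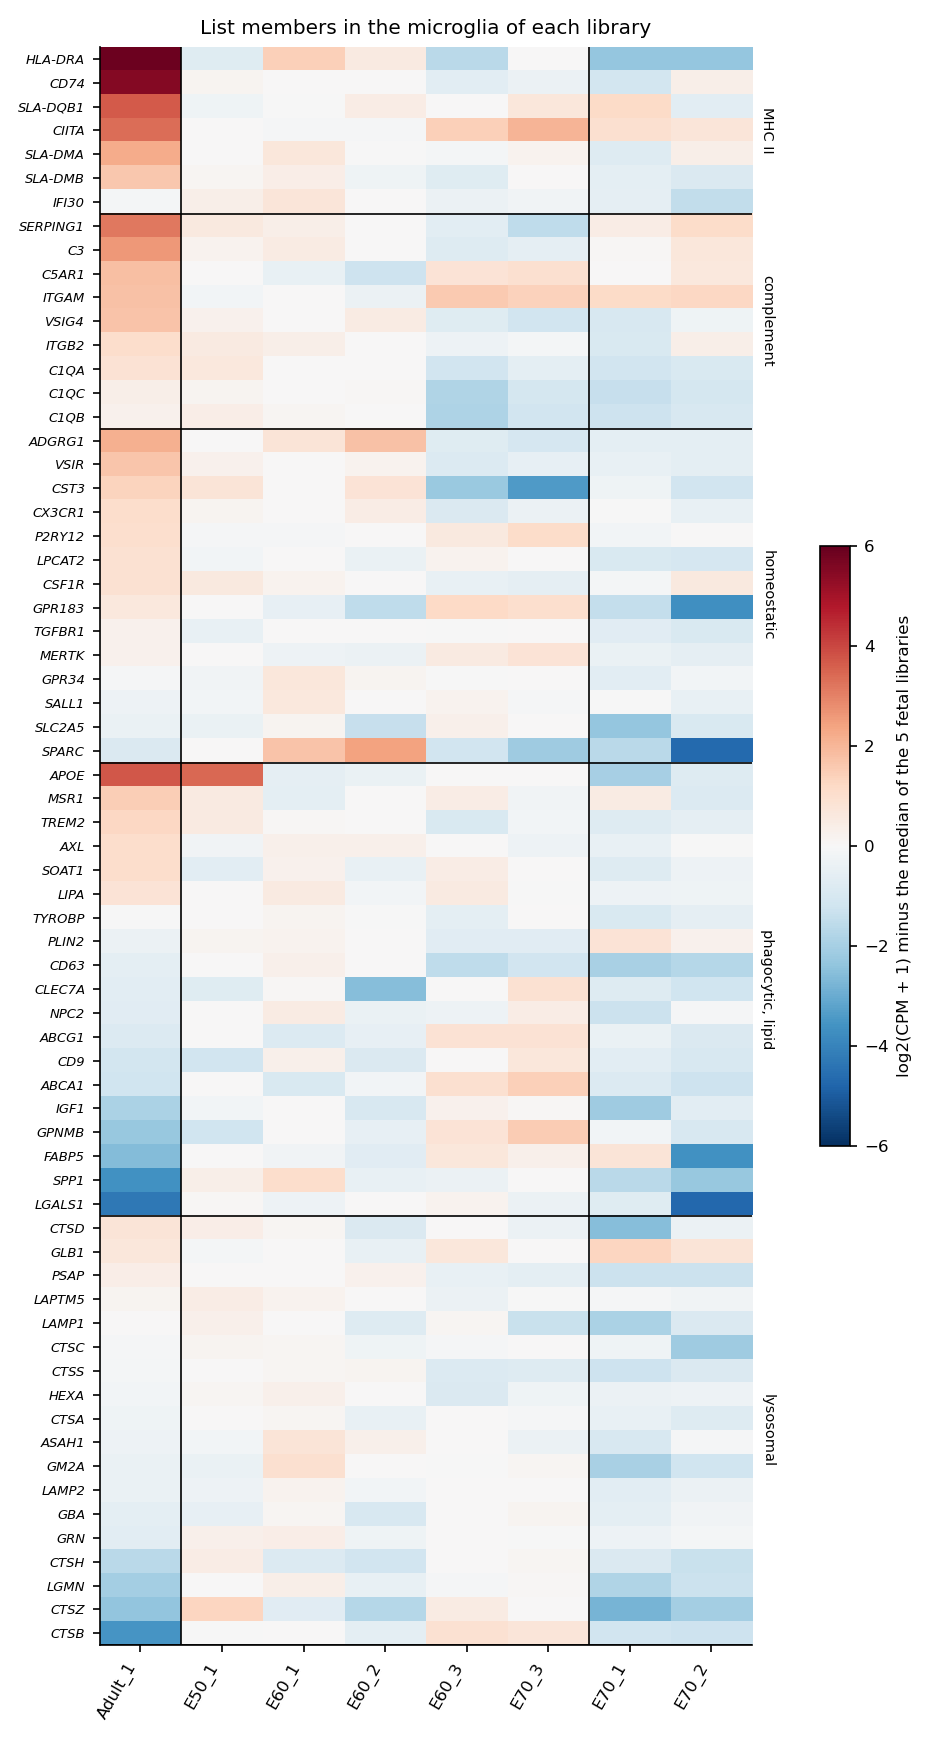
Level of tested members of 5 gene lists in the microglia of each library, as log2(CPM + 1) minus the median of the 5 fetal libraries, with E70_1 and E70_2 at the right. Within the Adult_1 column HLA-DRA and CD74 are the highest entries and SPP1, LGALS1 and CTSB the lowest, and APOE is high in both Adult_1 (7173 CPM) and E50_1 (5924 CPM).

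Several of the named lower genes serve the cytoskeleton, membranes and metabolism. ANXA2, an annexin, was at 10.4 CPM in Adult_1 against 125 in E50_1, 232 in E60_1, 121 in E60_2, 119.6 in E60_3 and 164 in E70_3, and at 118 in the other adult cells. ALDH2, the mitochondrial aldehyde dehydrogenase, was at 6.94 against 41.6 to 131, with 89.9 in the other adult cells. NKG7, known as a granule gene of natural killer cells, was at 19.4 in Adult_1 against 118 to 167 in fetal microglia, and at most 5.49 CPM in the other cells of all 8 libraries. SMPDL3A, a phosphodiesterase (1 adult UMI against 9.70 to 62.0 CPM), had no UMI in E70_1 and E70_2. TUBB6, SH2D6 and PLPP2 had 2 to 3 adult UMIs against lowest fetal values of 15.7, 12.1 and 13.7 CPM. PLPP2 had no UMI in E70_2 and was at 42.6 CPM in the other adult cells.

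Genes of DNA replication and mitosis were low in adult microglia. PCLAF, a PCNA-binding factor, was at 5.55 CPM in Adult_1 against 63.4 in E50_1, 136 in E60_1, 185 in E60_2, 106 in E60_3 and 68.9 in E70_3. MCM2, a subunit of the replicative helicase, had 1 adult UMI against 10.7 to 20.05 CPM, and NCAPH and MYBL2 had 2 UMIs each against 9.64 to 17.1 and 12.0 to 41.2 CPM. Of 33 tested list members 14 were lower, none was higher, 20 lay below the fetal range and the median log2 ratio was −1.46. With E70_1 and E70_2 added 6 were lower, and in cells thinned to 2000 UMIs 3 of 30. UBE2C, a ubiquitin-conjugating enzyme of mitosis, had no adult UMI against 34.8 to 186 CPM, and TOP2A was at 7.63 against 28.5 to 112. PCNA itself lay within the range (114 against 96.4 to 226).

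At 2000 UMIs 21.5% of adult microglia (16.3 to 27.4) had at least 3 UMIs of the list, against 40.6% to 48.4% in the 5 fetal libraries. In E70_1 and E70_2 the shares were 23.5% (4 of 17) and 27.8% (5 of 18), with intervals of 6.81 to 49.9 and 9.69 to 53.5. The other cells of the libraries had a median log2 ratio of −1.73 over the same list.

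Genes named for fetal expression were lower in part. Of 11 tested members of the oncofetal list PEG10 (1.39 CPM against 16.7 to 60.4), MEST (7.63 against 40.3 to 99.99) and the RNA-binding IGF2BP3 (29.8 against 105 to 249.7) were lower, none was higher, 7 were below the range and the median log2 ratio was −0.84, with −0.83 in the other cells. MEST was at 7.45 and 9.29 CPM in E70_1 and E70_2, as low as in the adult.

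Ribosomal protein genes took 3.80% of the UMIs of adult microglia and 9.43% to 10.52% in the 5 fetal libraries, with 6.67% and 6.52% in E70_1 and E70_2. Of 57 tested genes 34 were lower, none was higher and 49 lay below the fetal range, while with E70_1 and E70_2 added 13 were lower. In the other cells the share was 4.80% in Adult_1 and 6.10% to 8.44% in the same fetal libraries, and 41 of the 57 were below the fetal range there. Ribosomal protein genes have many near-identical copies, so single values are uncertain. Among 14 iron and heme genes FTL, the ferritin light chain, was lower, at 2182 CPM in Adult_1 against 4680.4 to 9993, and TF was higher, with 2 above and 3 below the range and a median log2 ratio of −0.049.

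For the 318 lower genes, 86.5% were below E70_1 and 87.1% below E70_2, beside 42.2% and 41.5% of all genes tested. At least 2-fold differences were found for 50.9% and 49.1%, beside 11.7% and 11.4%. Of the 15 named lower genes 12 were below all 7 fetal libraries, each by at least 2-fold, and 6 met all conditions of the call against 7 libraries, as did 11 of the 15 named higher genes. Added to the range, E70_1 and E70_2 also left 2 of the 5 phagocytic, 2 of the 3 lysosomal and 1 of the 3 oncofetal genes lower, 1 of the 3 cytokine genes higher, and CXCR4, CD180 and FTL no longer lower.

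Free RNA of a library enters all of its droplets. The same ratio was therefore taken over the cells outside the rule. Of the 613 higher genes 463 (75.5%) were above the fetal range in the other cells too, beside 29.1% of all genes tested, and 211 (34.4%) by at least 2-fold, beside 6.68%. Of the 318 lower genes 191 (60.1%) were below the range there, beside 23.2% of all genes tested, and 70 (22.01%) by at least 2-fold, beside 2.58%. Among the named genes, 14 of the 15 higher and 3 of the 15 lower genes were outside the range in the same direction in the other cells, and 7 and 2 by at least 2-fold. Microglia had at least the level of the other adult cells for 426 of the higher genes (69.5%, beside 47.2% of all genes tested), and at least 2 times that level for 209 (34.1%, beside 13.6%).

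**Figure D5:**
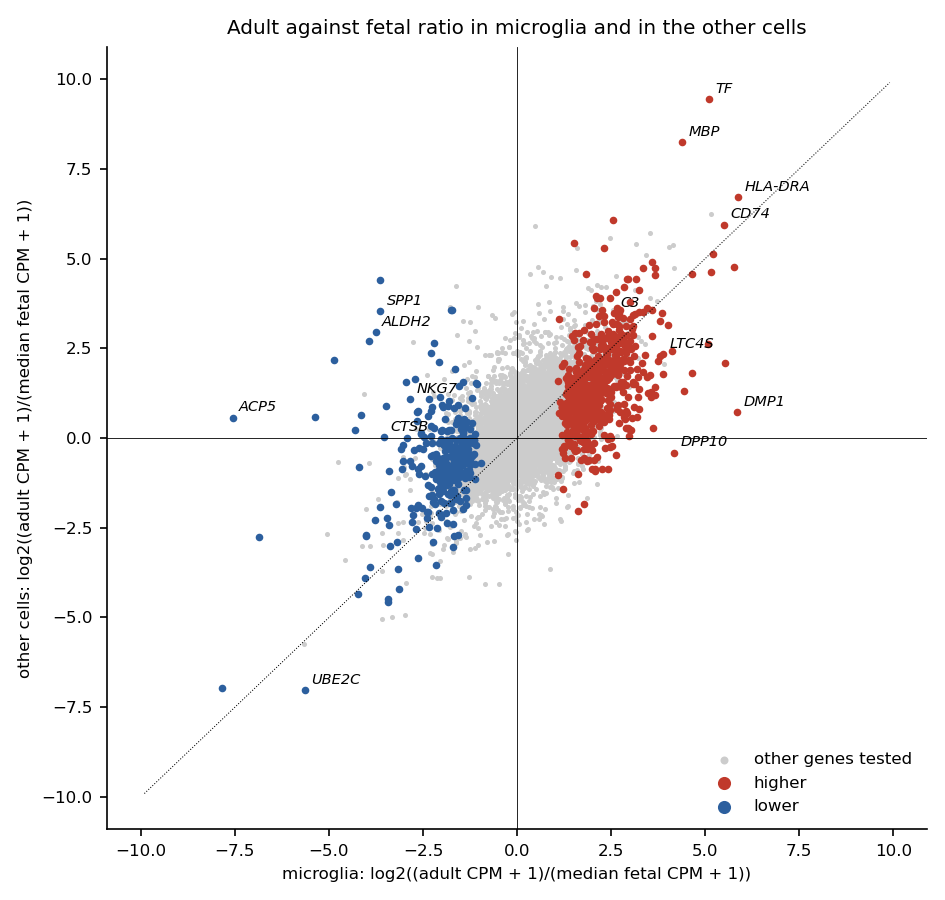
Log2 ratio of adult to median fetal level for each tested gene, in microglia (horizontal) and in the other cells of the same libraries (vertical), with higher genes in red, lower genes in blue and equal ratios on the dotted line. TF, MBP, HLA-DRA and CD74 lie near or above the line, DMP1 and DPP10 lie below it near 0 on the vertical axis, and ACP5 lies near 0 on that axis at the far left.

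The other 187 higher genes were at lower level in adult microglia than in the other adult cells. Oligodendrocyte transcripts led those with a symbol. TF, transferrin, was at 68.7 CPM in adult microglia, at most 2.95 in the 5 fetal libraries and 1509 in the other adult cells. MBP, myelin basic protein, was at 925 CPM against 22.7 to 94.5, with 4205 CPM in the other adult cells and a UMI at equal depth in 80.3% of adult microglia and 87.0% of the other adult cells. The 14 oligodendrocyte markers in the files together took 0.140% of adult microglial UMIs, 0.0122% to 0.0260% of fetal ones and 1.13% of the UMIs of the other adult cells. SLC9A4, KLRF1 and TNFSF10 followed, at 89.5, 70.1 and 50.7 CPM in adult microglia and 299, 152 and 100.4 in the other adult cells.

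Calls among markers of other immune cells rest on few tested genes. Of all genes tested 6.14% were called higher and 3.18% lower. Of 9 tested border macrophage markers LYVE1 (3.47 CPM against 12.7 to 102) and FOLR2 (20.8 against 47.2 to 190.1) were lower and none was higher, and MRC1 and CD163 were within the range (50.7 and 18.7 CPM). The 17 monocyte and neutrophil symbols left 4 tested genes, none of them called, and S100A8, S100A9 and S100A12 did not pass the filter. Among 5 tested lymphocyte genes JCHAIN was higher (74.2 against 14.8 to 31.3) and NKG7 lower, with a median log2 ratio of 0.45 that turned to −0.059 with TMM scaling, and the T cell genes CD3D, CD3E and CD3G did not pass the filter. The summed border macrophage markers took 0.0376% of adult and 0.0255% to 0.0666% of fetal microglial UMIs, lymphocyte markers 0.0466% and 0.0287% to 0.0645%, and monocyte and neutrophil markers 0.0368% and 0.0156% to 0.0305%. Their part in the values above was not tested.

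In nuclei the rule found 4 of 2552 in Adult_nc and 0 of 858 in E70_nc, which allows a share of up to 0.350%, so it gave no comparison. An alternative rule of 3 or more UMIs of nuclear microglial genes found 394 and 232 nuclei. The 4 genes of the whole-cell rule were at 453 CPM in these adult nuclei and 99.3 in the remaining ones, but at 16.1 and 8.15 in E70_nc, so the E70 nuclei cannot be called microglia from these genes and the values are given as they stand. Of the 15 named higher genes 13 were at a higher level in the adult nuclei, ARHGAP15 of the nuclear rule included, and so were 13 of the 15 named lower genes. DMP1 had 66.2 CPM (46.8 to 90.9) in the adult and 10.04 (5.62 to 16.6) in the E70 nuclei. HDX had 48.8 (32.4 to 70.5) and 70.3 (57.5 to 85.1), and SPP1 62.7 (43.9 to 86.8) and 2.68 (0.730 to 6.86), an order opposite to that of whole cells. HLA-DRA also had the opposite order, with overlapping intervals and few UMIs. It had 0 UMIs in the adult and 4 in the E70 nuclei. CD74 had 5 and 2 UMIs.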

How the data were processed

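UMI counts per gene and cell were made by the authors with Cell Ranger, which the submitters' processing notes give as version 2.20, against Sscrofa11.1 with Ensembl annotation and introns counted, and were deposited as filtered matrices of 22452 genes for 10 libraries. Of 7482 gene IDs without a symbol in the files, 987 were named from a gene table and 6495 stayed unnamed, so 101 higher and 44 lower genes have no name. Coordinates are those of the RefSeq annotation of Sscrofa11.1 (33 of the named genes).

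UMIs of the chosen cells were summed per library and given as CPM. Genes needed 20 UMIs in all microglia and a mean of 10 CPM. A higher gene had an adult CPM at least 2 times the highest fetal CPM, 20 adult UMIs and a Poisson lower bound above that CPM and above the upper bound of the pooled fetal CPM. A lower gene had an adult CPM of at most 1/2 the lowest fetal CPM, 10 UMIs in that library and an upper bound below it, with an adult count of 0 taken as 3 UMIs. List ratios are log2((adult CPM + 1)/(median fetal CPM + 1)), and taking adult counts of 0 as 3 UMIs left every list median as it was. In each direction the 15 genes with the largest fold were named among genes with a symbol. These had to be at least as high in microglia as in the other cells of the stage in which they were high. Up to 5 higher genes with a symbol and below the level of other adult cells were added, and so were members of the gene lists. The members and the lists were chosen with earlier results of these data known. With 1 adult library no test was run. Python 3.11.15, numpy 2.4.6, scipy 1.17.1, pandas 2.3.3, R 4.3.3 and edgeR 4.0.16 (TMM factors) were used, and the calls were tested on simulated data. Doublets were not called. Values of a few list members are not reported here. Alternatives to the scaling, cell rule, gene filter, fold and fetal libraries are given at the end.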

Additional observations from a re-analysis of the deposited data

How the results depend on the processing

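No paired analysis was possible because the result comes from no test and the adult stage has 1 library. The counts of higher and lower genes and of genes above and below the fetal range (613, 318, 2972 and 1866) became 311, 580, 1743 and 3098 with TMM scaling and 350, 525, 1923 and 2882 with median-of-ratios scaling. Without a gene filter 1006 were higher and 6826 above. Without cells carrying 3 or more macrophage, monocyte, neutrophil or lymphocyte UMIs, which left 29 adult cells and 1 in E50_1, they were 166, 30, 1879 and 515. Without cells carrying 3 or more division gene UMIs, which left 45 adult cells and 3 in E50_1, they were 311, 119, 1838 and 696. E60_2 as the single fetal library gave 2559, 1654, 6046 and 4460. A 4-fold limit gave 98 and 56, a 1.5-fold limit 1244 and 623, and a level at least 2 times that of the other cells 209 and 58. Alternatives chosen after seeing the data gave 189, 82, 1719 and 931 with all 7 fetal libraries, 1228, 795 and, below the range, 2937 without E60_3 and E70_3, and 247 and 182 where the fold had to be 2 times that of the other cells. Leaving out each of the 5 fetal libraries gave 674 to 778 higher, 334 to 446 lower, 3121 to 3383 above and 1933 to 2250 below. Of 675 values of 35 named genes over 20 settings, 667 kept their direction. Lower genes with no UMI in a fetal library have no ratio to it in that setting. Such values are not among the 675, although those genes were not below that library. This happened mostly without immune marker cells and without division gene cells. The log2 ratio to the nearest fetal library reversed for MCM2 (0.37) and PLPP2 (0.72) in thinned cells with 0 adult UMIs taken as 3. Without immune marker cells it reversed for HDX (−0.28) and SPP1 (0.74), and without division gene cells for SLA-DQB1 (−0.49) and KLRF1 (−0.98). With all 7 libraries it reversed for RASGRP1 (−0.19) and LGALS1 (0.43). SMPDL3A and PLPP2 had no ratio with all 7 libraries, but their adult level was above E70_2, where neither had a UMI. List medians reversed with TMM for pattern recognition (−0.018), Fc receptors (−0.11, and −0.044 with median of ratios) and lymphocyte genes (−0.059), without E60_3 and E70_3 for iron and heme (0.22), and without cells over 1% other-class markers for astrocyte (0.48) and mural genes (0.39). The cause of these reversals was not tested. With 228 adult cells a gene needed 2.08 CPM to reach 3 adult UMIs, which limits what can be said of lower genes.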
